A study of Mus musculus with 8 samples.

Results

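The 9 genes described here encode core factors of nonsense-mediated mRNA decay (NMD): Upf1, Upf2, Upf3a, Upf3b, Smg1, Smg8, Smg9, Smg5 and Smg6. They were picked by symbol and not by a measured value, although earlier results of these data were known when they were chosen. They are 9 of the 55385 gene identifiers in the deposited RNA-seq table. The table covers liver tissue of 8 male C57BL/6J mice, each sequenced as 1 library, at 5 weeks of age and after a fast of 16 h. In the 4 Usp39-HKO mice, floxed Usp39 alleles (exon 2 between loxP sites) met a Cre recombinase under the albumin promoter, which is active in hepatocytes and cells of that lineage. The 4 control mice were littermates whose genotype is labelled WT, so whether they carried floxed alleles without Cre is not stated in the labels. Usp39 encodes a splicing factor that belongs to the tri-snRNP of the spliceosome, and the study asked what its loss does to the liver.

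NMD degrades messenger RNAs on which the ribosome stops at a premature termination codon, including many transcripts left by faulty splicing. The helicase UPF1 is joined by UPF2 and by UPF3A or UPF3B, which link it to the exon junction complexes left on spliced mRNA. The kinase SMG1, held in check by SMG8 and SMG9, phosphorylates UPF1, and phosphorylated UPF1 recruits SMG6, which cuts the mRNA, and SMG5, which brings in decapping and deadenylation.

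The libraries held 8589636 to 10418450 counts assigned to genes, so a count of 3 corresponded to 0.288 to 0.349 CPM (counts scaled by library size). All 9 NMD factors were well above this, with 83 to 1825 counts in any mouse, and all 9 passed the filter on low values (FPKM, fragments scaled by exon length and library size, of at least 0.5 in at least 4 mice), along with 14340 genes in all. The trimmed mean of M-values (TMM) factors, which correct library sizes for composition, separated the genotypes, lying at 0.911 to 0.940 in control and 1.01 to 1.19 in Usp39-HKO livers. As a result, the median log2 fold change (Usp39-HKO over control) of all genes tested was -0.0015 with TMM and 0.24 with library size alone. The deposited FPKM values carry no such correction. Usp39 itself was at 9.58 ± 0.706 FPKM (SD, n = 4) in control and 8.44 ± 0.286 FPKM (n = 4) in Usp39-HKO livers, with no overlap between the groups, and its log2 fold change was -0.41 ± 0.11 (SE; edgeR quasi-likelihood test, Benjamini-Hochberg adjusted p = 0.021). It was -0.18 with library size alone (adjusted p = 0.25 by the same test), and it also missed the threshold without Usp39-HKO mouse 4 (adjusted p = 0.061) or control mouse 4 (adjusted p = 0.055). This count covers the whole gene and not the deleted exon alone. Hepatocyte markers summed to 15520 to 17324 FPKM in control and 13934 to 19248 FPKM in Usp39-HKO livers, and none of the 8 was absent.

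Upf3b was the 1 NMD factor whose RNA changed by edgeR's quasi-likelihood test with TMM factors, and it fell. That is 11.1% of the 9 factors, against 22.5% of all genes tested (10.9% higher and 11.6% lower), a share no larger than that of genes at large. The other 8 did not pass the test at an adjusted p under 0.05, and 5 of the 9 had an unadjusted p under 0.05, against 35.3% of all genes. The median log2 fold change of the 9 was -0.01. In deposited FPKM 6 of the 9 means were higher in Usp39-HKO livers, and after TMM 4 were higher.

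**Figure D1:**
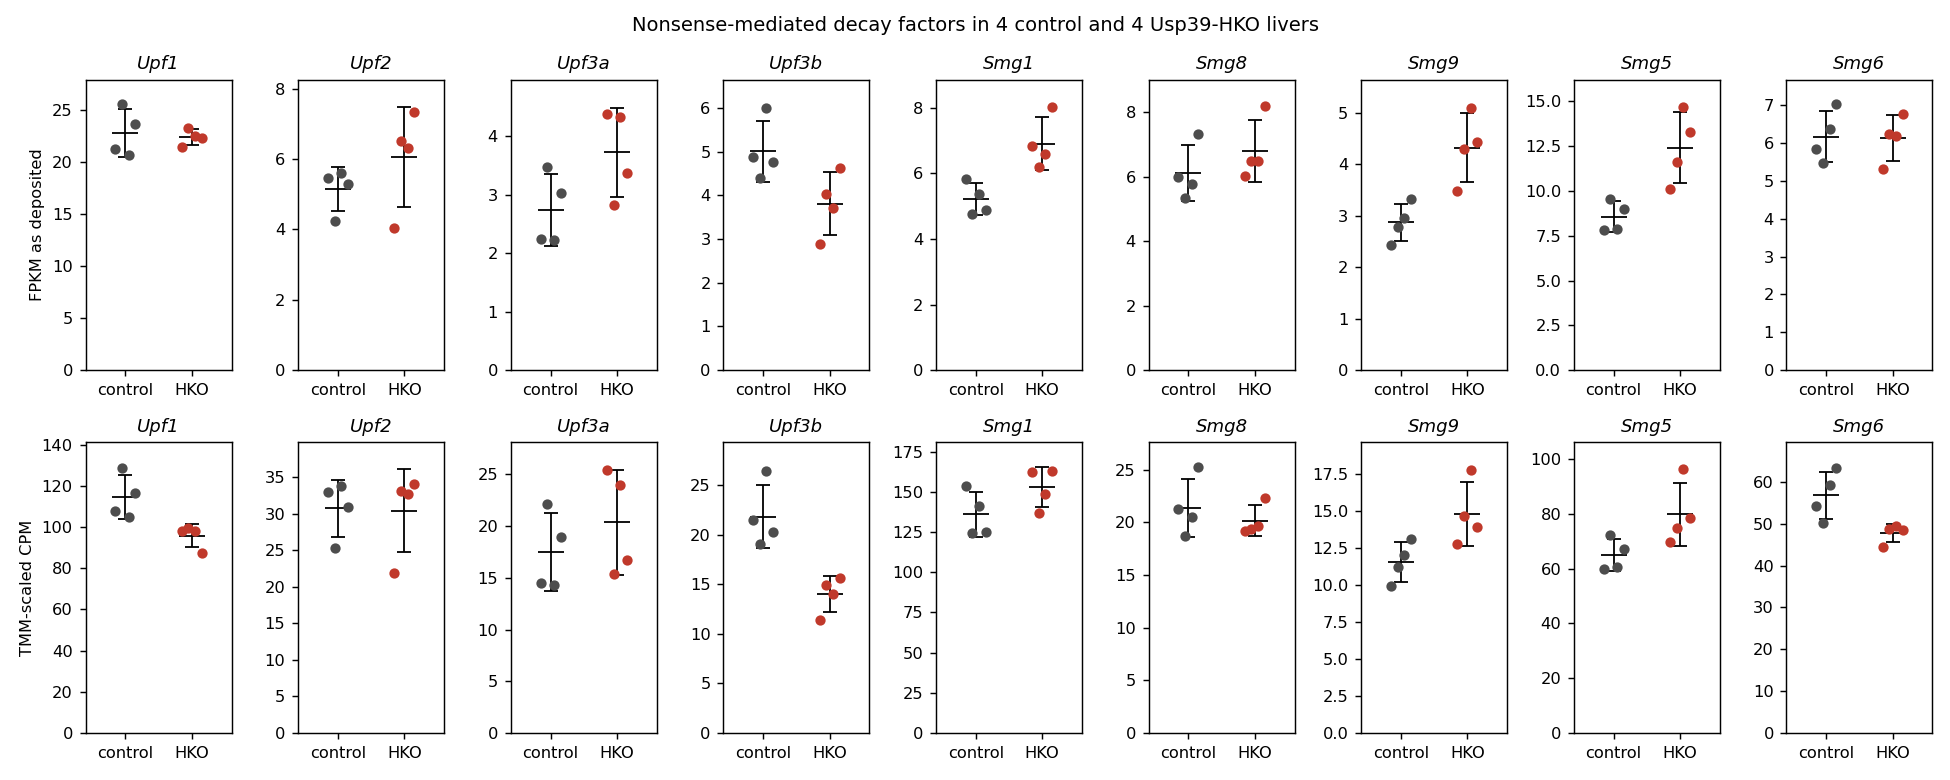
Levels of the 9 NMD factors in each liver, as deposited FPKM (upper panels) and as TMM-scaled CPM (lower panels), in 4 control (grey) and 4 Usp39-HKO (red, HKO) mice; each point is 1 mouse, and the bars give the mean and SD. The groups do not overlap for Smg1, Smg9 and Smg5 in FPKM and for Upf1, Upf3b and Smg6 in TMM-scaled CPM.

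Upf1, which encodes the RNA helicase at the centre of the pathway, was the most abundant of the 9 at 22.6 FPKM on average over the 8 livers, a level above that of 86.0% of genes tested. Smg5 followed at 10.5 FPKM. Smg8 (6.45 FPKM), Smg6 (6.15 FPKM), Smg1 (6.05 FPKM) and Upf2 (5.60 FPKM) formed a middle group, and Upf3b (4.41 FPKM), Smg9 (3.60 FPKM) and Upf3a (3.23 FPKM) were lowest, around or below the median tested gene at 4.42 FPKM. The range of Upf1 over the 8 mice did not meet that of Smg5, and Smg5 was above Smg8 in 8 of 8 mice. From Smg8 downwards the ranges of neighbours overlapped, and the higher of each pair was higher in only 5 or 6 of 8 mice, so this order is not resolved beyond the spread between mice. FPKM divides by length, which makes these levels comparable between genes, but the length counted was that of all annotated exons merged. The principal coding transcript has the APPRIS tag in GENCODE vM21 and is the longest where there are several. It covers 35.1% of these bases in Upf3a, 58.6% in Upf3b, 60.6% in Smg9 and 63.9% in Smg5. It covers 64.9% in Smg1, 69.2% in Smg6, 94.5% in Upf2, and 100% in Upf1 and Smg8. With the same counts, FPKM over the coding transcript alone would be higher for every gene below 100%, most so for Upf3a. The order given above therefore holds for the merged length and was not worked out for the coding transcripts.

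Upf3b (ENSMUSG00000036572, chrX:37091678-37110322, minus strand, GRCm38) encodes the adaptor that bridges UPF2 and the exon junction complex. Its deposited FPKM were 4.88, 4.39, 5.997 and 4.75 in the 4 control livers and 2.88, 4.02, 3.72 and 4.62 in the 4 Usp39-HKO livers. The groups met at 1 mouse, since the highest Usp39-HKO liver lay above the lowest control (5.00 ± 0.694 against 3.81 ± 0.722 FPKM, exact permutation p = 0.057). After TMM scaling the values were 21.5, 19.1, 26.4 and 20.3 CPM in control and 11.4, 14.9, 14.1 and 15.6 CPM in Usp39-HKO livers. All 4 Usp39-HKO values then lay below all 4 control values, a separation that an exact permutation test of 4 against 4 mice scores at its smallest possible p, 0.029. In TMM-scaled CPM 3 of the 9 factors (Upf1, Upf3b and Smg6) were separated, all lower in Usp39-HKO livers, against 24.8% of all genes tested and 12.9% in that direction. The log2 fold change of Upf3b was -0.64 ± 0.14 (SE; edgeR, Benjamini-Hochberg adjusted p = 0.0095). It stayed between -0.69 and -0.53 when any 1 mouse was left out, with adjusted p-values of 0.0094 to 0.037 by the same test. With library size alone it was -0.39 and no longer passed (edgeR, Benjamini-Hochberg adjusted p = 0.091). Upf3b was also the 1 factor past the cutoff that the study used (unadjusted p under 0.05 and a log2 fold change beyond 0.5 in either direction), which 21.7% of all genes met and 9.62% met as lower.

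Upf3a (ENSMUSG00000038398, chr8:13785615-13799193, plus strand) is the autosomal paralog of Upf3b. Its FPKM were 2.25, 3.47, 2.22 and 3.03 in control and 4.37, 2.83, 4.32 and 3.36 in Usp39-HKO livers. Of the Usp39-HKO livers 2 lay above every control and the other two within the control range (2.74 ± 0.614 against 3.72 ± 0.755 FPKM, exact permutation p = 0.14). Its log2 fold change of 0.21 ± 0.20 (SE) did not pass the test (edgeR, Benjamini-Hochberg adjusted p = 0.48), nor did the 0.44 found with library size alone (adjusted p = 0.099).

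Because any scaling between libraries cancels in a ratio of 2 genes within 1 mouse, the paralogs were also set against each other in each liver. Upf3a stood at 0.461, 0.792, 0.371 and 0.637 of the Upf3b level in control livers and at 1.52, 0.703, 1.16 and 0.729 in Usp39-HKO livers. By this measure Upf3b was the more abundant paralog in 4 of 4 control and 2 of 4 Usp39-HKO mice, but the order depends on the length used. With the same counts over the principal coding transcripts, the ratio was 0.62 to 1.32 in control and 1.17 to 2.53 in Usp39-HKO livers, and Upf3b was the more abundant in 2 of 4 and 0 of 4 mice. The mean ratios, 0.565 ± 0.187 and 1.03 ± 0.388 (SD, n = 4 each), overlapped in their mice, and the difference did not reach an exact permutation p under 0.05 (p = 0.086).

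Upf1 (ENSMUSG00000058301, chr8:70331525-70353278, minus strand) measured 21.2, 25.6, 20.7 and 23.7 FPKM in control and 21.4, 23.3, 22.6 and 22.3 FPKM in Usp39-HKO livers. In FPKM the Usp39-HKO values all lay inside the control range (22.8 ± 2.27 against 22.4 ± 0.760, exact permutation p = 0.77). After TMM they were 108, 129, 105 and 117 CPM in control and 98.2, 99.6, 98.4 and 87.4 CPM in Usp39-HKO livers, so that all 4 Usp39-HKO values lay below the controls (exact permutation p = 0.029). Its log2 fold change was -0.26 ± 0.098 (SE), short of the threshold (edgeR, Benjamini-Hochberg adjusted p = 0.081), and -0.02 with library size alone.

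Upf2 (ENSMUSG00000043241, chr2:5951469-6056703, plus strand), which encodes the factor between UPF1 and the UPF3 proteins, measured 5.47, 4.24, 5.61 and 5.28 FPKM in control and 4.04, 6.52, 6.32 and 7.34 FPKM in Usp39-HKO livers. Of the Usp39-HKO livers 3 lay above every control and 1 below every control, with an exact permutation p of 0.31. Its log2 fold change was -0.01 ± 0.15 (SE; edgeR, Benjamini-Hochberg adjusted p = 0.97) and 0.24 with library size alone, so no direction can be given for it.

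Smg1 (ENSMUSG00000030655, chr7:118131308-118243670, minus strand), the kinase gene, measured 5.82, 4.76, 5.35 and 4.87 FPKM in control and 6.83, 6.18, 6.57 and 8.03 FPKM in Usp39-HKO livers. All 4 Usp39-HKO livers were above the controls in FPKM (5.20 ± 0.487 against 6.90 ± 0.797, exact permutation p = 0.029). Smg1, Smg9 and Smg5 were the 3 of 9 factors separated in FPKM, all higher in Usp39-HKO livers, against 28.7% of all genes separated, 23.9% in that direction and 4.81% in the other. After TMM the Smg1 groups overlapped, and its log2 fold change was 0.17 ± 0.11 (SE; edgeR, Benjamini-Hochberg adjusted p = 0.29).

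Smg9 (ENSMUSG00000002210, chr7:24399619-24422778, plus strand), a subunit that restrains the kinase, measured 2.44, 2.78, 2.96 and 3.32 FPKM in control and 3.47, 4.29, 5.10 and 4.45 FPKM in Usp39-HKO livers. The lowest Usp39-HKO liver was just above the highest control (2.87 ± 0.365 against 4.33 ± 0.667 FPKM, exact permutation p = 0.029). Its log2 fold change was 0.35 ± 0.15 (SE), which did not pass (edgeR, Benjamini-Hochberg adjusted p = 0.11).

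Smg8 (ENSMUSG00000020495, chr11:87077732-87086774, minus strand), which encodes the partner of SMG9, measured 5.99, 5.33, 5.79 and 7.34 FPKM in control and 6.01, 6.49, 6.48 and 8.20 FPKM in Usp39-HKO livers. The groups overlapped (exact permutation p = 0.37), and the log2 fold change was -0.09 ± 0.12 (SE; edgeR, Benjamini-Hochberg adjusted p = 0.65) with TMM and 0.15 with library size alone. Within a mouse, Smg9 stood at 0.408, 0.522, 0.511 and 0.452 of the Smg8 level in control livers and at 0.578, 0.661, 0.786 and 0.542 in Usp39-HKO livers. The ratio of these partners was thus higher in 4 of 4 Usp39-HKO mice (0.473 ± 0.0532 against 0.642 ± 0.108, exact permutation p = 0.029). Of all pairs of tested genes, 25.3% had ratios that separated the genotypes in this way.

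Smg5 (ENSMUSG00000001415, chr3:88336260-88362338, plus strand) measured 7.81, 9.54, 7.90 and 9.01 FPKM in control and 10.1, 11.6, 14.7 and 13.3 FPKM in Usp39-HKO livers. All Usp39-HKO livers were above the controls (8.57 ± 0.849 against 12.4 ± 1.98 FPKM, exact permutation p = 0.029), and after TMM 1 Usp39-HKO liver fell among the controls. Its log2 fold change was 0.30 ± 0.12 (SE), short of the threshold (edgeR, Benjamini-Hochberg adjusted p = 0.089). Without Usp39-HKO mouse 1 the value was 0.38 and passed (edgeR, Benjamini-Hochberg adjusted p = 0.037), which made 2 factors called rather than 1.

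Smg6 (ENSMUSG00000038290, chr11:74925823-75164448, plus strand), the gene for the endonuclease of the pathway, measured 5.84, 5.47, 6.36 and 7.02 FPKM in control and 5.31, 6.24, 6.19 and 6.78 FPKM in Usp39-HKO livers. In FPKM the groups lay on top of each other (6.17 ± 0.674 against 6.13 ± 0.608, exact permutation p = 0.91). After TMM the Usp39-HKO livers, at 44.5, 48.9, 49.4 and 48.5 CPM, were all below the controls at 54.3, 50.3, 59.2 and 63.4 CPM. The log2 fold change of -0.25 ± 0.10 (SE) did not pass (edgeR, Benjamini-Hochberg adjusted p = 0.098) and was -0.0079 with library size alone, although with TMM without control mouse 2 it was -0.30 and did (edgeR, Benjamini-Hochberg adjusted p = 0.049), again making 2 factors called.

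Smg5 and Smg6 act on different routes from phosphorylated UPF1, and their levels were compared within each mouse. The Smg5 level was 1.34, 1.75, 1.24 and 1.28 times that of Smg6 in control livers and 1.904, 1.86, 2.37 and 1.96 times in Usp39-HKO livers. All 4 Usp39-HKO ratios were above all 4 control ratios (1.40 ± 0.232 against 2.02 ± 0.233, exact permutation p = 0.029). A separation of this kind was found for 25.3% of all pairs of tested genes.

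**Figure D2:**
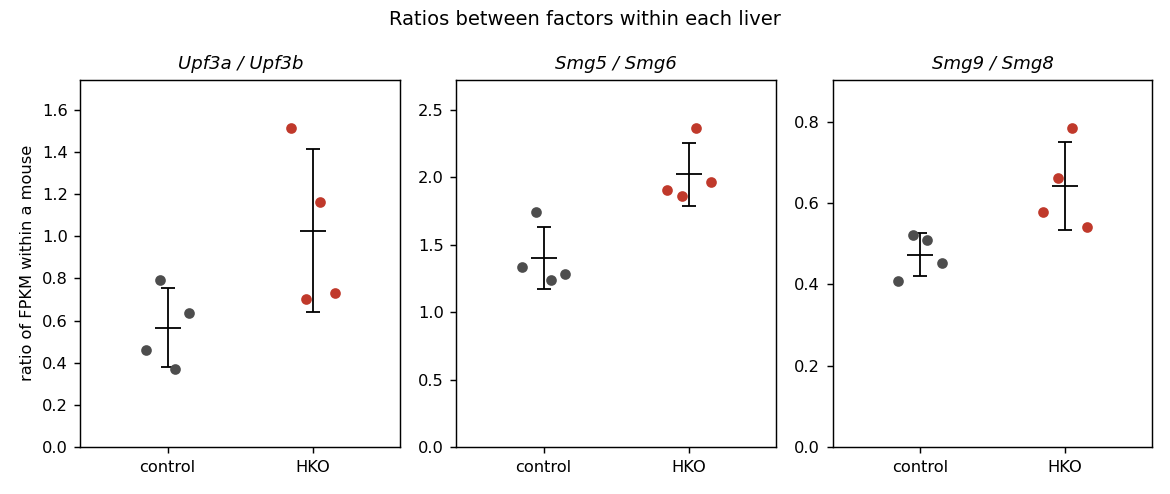
Ratios of deposited FPKM between 2 factors within each mouse, in 4 control (grey) and 4 Usp39-HKO (red, HKO) livers; each point is 1 mouse, and the bars give the mean and SD. The groups do not overlap for Smg5 over Smg6 and Smg9 over Smg8, and they overlap for Upf3a over Upf3b.

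Of the 36 pairs that the 9 factors form, 10 had within-mouse ratios that did not overlap between the genotypes, which is 27.8% against 25.3% of all pairs of tested genes. Adjusted over the 36 pairs by the Benjamini-Hochberg method, the smallest exact permutation p was 0.10, so that 0 pairs passed after this correction. Because the unadjusted p cannot go below 0.029, no pair could pass with only 10 separated, however large the differences. Upf3b took part in 5 of the 10, each time as the gene that was lower in Usp39-HKO livers relative to its partner (Upf2, Smg1, Smg8, Smg9 or Smg5). Smg9 took part in 4 and Smg5 in 3, always as the relatively higher gene, and Upf3a in 0. The difference in log2 ratio was most marked for Upf3b against Smg9, at 0.80 ± 0.25 in control and -0.19 ± 0.22 in Usp39-HKO livers (SD, n = 4 each), with Upf3b above Smg9 on average in the first and below it in the second.

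The call for a factor thus depended on how the libraries were scaled. With library size alone, 3 factors passed, all higher in Usp39-HKO livers, against 29.4% of all genes called, 24.6% higher and 4.85% lower on that scale. These were Smg1 at a log2 fold change of 0.41 (edgeR, Benjamini-Hochberg adjusted p = 0.021), Smg9 at 0.59 (adjusted p = 0.018) and Smg5 at 0.54 (adjusted p = 0.010). Relative to the median of all genes on that scale, 0.24, these changes were smaller, and the order of the 9 factors from Upf3b at the bottom to Smg9 at the top was the same. With limma on log2(FPKM + 1), which has no TMM factors either, the count was 3, all higher, beside 21.1% of all genes called higher and 4.44% lower. Upper-quartile factors called Smg5 as higher and Upf3b as lower, beside 13.7% of all genes called higher and 8.71% lower, and DESeq2 called Upf3b alone, beside 12.5% of genes lower. Taken as a sum over the 9 factors, the level was 61.7 to 68.3 FPKM in control and 64.5 to 78.4 FPKM in Usp39-HKO livers, and 471.8 to 481 CPM against 458 to 501 CPM after TMM, with overlap on both scales.

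**Figure D3:**
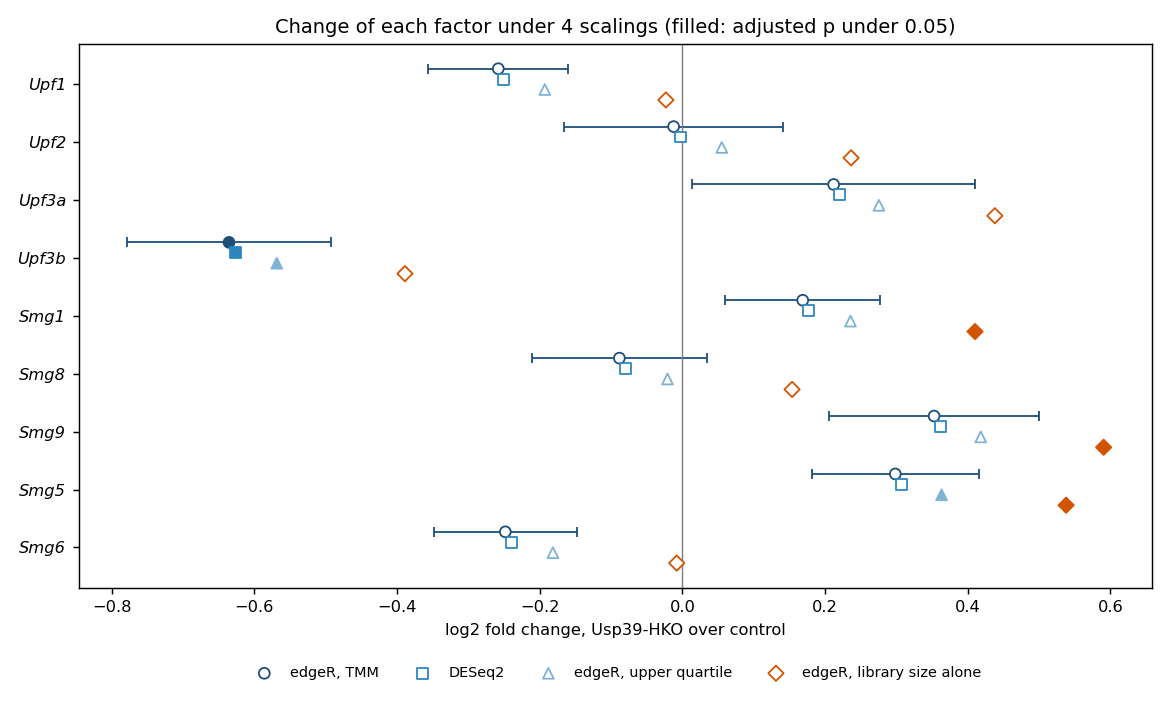
Log2 fold change (Usp39-HKO over control, n = 4 each) of each NMD factor by edgeR with TMM factors, DESeq2, edgeR with upper-quartile factors and edgeR with library size alone; filled symbols passed an adjusted p under 0.05, and the bars on the TMM values give the SE. Upf3b is filled at -0.64 with TMM and open at -0.39 with library size alone, where Smg1, Smg9 and Smg5 are filled.

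The 9 genes differ in the transcripts annotated for them (GENCODE vM21, GRCm38). Transcripts of the NMD class are annotated for 3 of the 9 (Smg1, Smg5 and Smg6), close to the 28.3% of tested protein-coding genes that have one. The reference lists 5 retained-intron transcripts each for Smg1 and Smg5, 4 for Smg9, 2 for Upf3a and 1 for Smg6, and none for the other 4. The 4 factors with 2 or more of them were those with a positive log2 fold change, and the 5 others had a negative one. Only Upf3b passed the test, however, and Upf2 was at -0.01, so most of these signs are not settled. This split held in the main fit with TMM and not with library size alone, where Upf2 (0.24) and Smg8 (0.15) were positive too. It also failed in some other fits with TMM. Upf2 was positive, for example, with a filter of mean FPKM of at least 5 (0.069) and without Usp39-HKO mouse 1 (0.14). This did not extend to tested coding genes as a whole, where those with 2 or more retained-intron transcripts had a median log2 fold change of -0.04 (46.2% positive) and those with none 0.04 (53.5% positive). The counts take exons of all transcripts together, so reads in a retained intron and reads in spliced mRNA cannot be told apart in them. No factor shared a stretch of at least 150 bases and 97% identity with another gene, and annotated exons on the opposite strand covered 2.87% of the counted bases of Smg6 and 2.84% of those of Upf1. Whether the counting used strand is not stated, so reads there cannot be assigned to one gene.

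Genes that work beside the 9 factors were read against the same background, 10.9% of all genes called higher and 11.6% lower. Among 15 further NMD and translation termination genes, 1 rose and 1 fell (13.3% called), with a median log2 fold change of 0.06. Nbas, which has been tied to NMD of selected transcripts and also serves in vesicle traffic, fell from 4.11 ± 0.359 to 2.65 ± 0.458 FPKM (SD, n = 4 each), a log2 fold change of -0.87 ± 0.13 (SE; edgeR, Benjamini-Hochberg adjusted p = 0.0014). Pnrc2, which encodes a link between UPF1 and decapping, rose from 24.4 ± 2.99 to 40.0 ± 3.08 FPKM, a log2 fold change of 0.48 ± 0.10 (edgeR, Benjamini-Hochberg adjusted p = 0.0074). Both also passed with library size alone, at log2 fold changes of -0.63 and 0.71.

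Among 10 exon junction complex genes 2 rose and 0 fell by edgeR (20% called; 3 and 0 at an unadjusted p under 0.05), with a median of 0.08. Rnps1 rose by 0.35 ± 0.11 (log2, SE; edgeR, Benjamini-Hochberg adjusted p = 0.045) and Pnn by 0.35 ± 0.12 (adjusted p = 0.049). Both encode peripheral proteins that join the complex and act in splicing, and not its core. These calls were close to the threshold: the count was 2 without Usp39-HKO mouse 2, 1 without control mouse 2 and 0 without any 1 of the 6 other mice.

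Among 22 decapping and deadenylation genes 0 rose and 2 fell by edgeR (9.09% called; 2 and 2 at an unadjusted p under 0.05), with a median of 0.01. Cnot1, the scaffold of the CCR4-NOT deadenylase, fell by 0.46 on the log2 scale (SE 0.12; edgeR, Benjamini-Hochberg adjusted p = 0.019), and Cnot8, one of its catalytic subunits, fell by 0.36 (SE 0.12; adjusted p = 0.0499). With library size alone neither passed, and 5 other genes of the list were called higher, beside 24.6% of all genes on that scale. The count was 0 without Usp39-HKO mouse 3, control mouse 1 or control mouse 3, 1 without Usp39-HKO mouse 4 or control mouse 4, and 3, of which 2 were higher, without Usp39-HKO mouse 1. Among 15 genes of the RNA exosome and its cofactors 1 rose and 1 fell (13.3% called), with a median of -0.03. Exosc10, the nuclear exonuclease subunit, had a log2 fold change of 0.32 ± 0.10 (SE; edgeR, Benjamini-Hochberg adjusted p = 0.046). Skiv2l, the helicase of the SKI complex that feeds the cytoplasmic exosome, fell by 0.47 (SE 0.11; adjusted p = 0.011), but with library size alone it was at -0.24 and did not pass (adjusted p = 0.11). Leaving out Usp39-HKO mouse 1, 3 or 4 or control mouse 1, 3 or 4 lowered the exosome count to 1.

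The last list held 12 genes whose transcripts are described as limited by NMD. Of the 11 tested, 5 rose (45.5%, against 10.9% of all genes called higher) and 0 fell by edgeR, with 7 and 1 at an unadjusted p under 0.05, and the median log2 fold change was 0.69. Slc7a11 was not tested, having at most 4 counts in any mouse. Atf3, a stress-induced transcription factor gene, ranged from 1.24 to 2.78 FPKM in control and from 3.87 to 25.9 FPKM in Usp39-HKO livers, a log2 fold change of 2.56 ± 0.50 (SE; edgeR, Benjamini-Hochberg adjusted p = 0.0052). Gadd45a, a growth arrest gene, ranged from 0.556 to 0.707 FPKM in control and from 1.52 to 5.80 FPKM in Usp39-HKO livers (log2 fold change 2.36 ± 0.44; edgeR, Benjamini-Hochberg adjusted p = 0.0042). The groups did not overlap for either gene, and the spread was much wider in Usp39-HKO livers. The other 3 that rose were Ddit3, a transcription factor gene of the integrated stress response, at 1.20 ± 0.22, Snhg1, a noncoding host gene of small nucleolar RNAs, at 1.14 ± 0.16, and Upp1, a uridine phosphorylase gene, at 0.78 ± 0.23 (log2 fold change and SE). Most of these genes also answer to stress signalling, so the list does not measure NMD activity alone, and no test of that activity was made. Among tested coding genes, the 3324 with an annotated NMD-class transcript had a median log2 fold change of -0.024 (10.05% called higher, 13.15% lower). The 8439 without one had a median of 0.019 (13.5% called higher, 12.68% lower). Atf3, Gadd45a, Ddit3, Snhg1 and Upp1 each have 0 annotated NMD-class transcripts, so the 5 genes that rose are outside the set of 3324. This comparison therefore cannot show whether their rise extends to other transcripts limited by NMD.

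**Figure D4:**
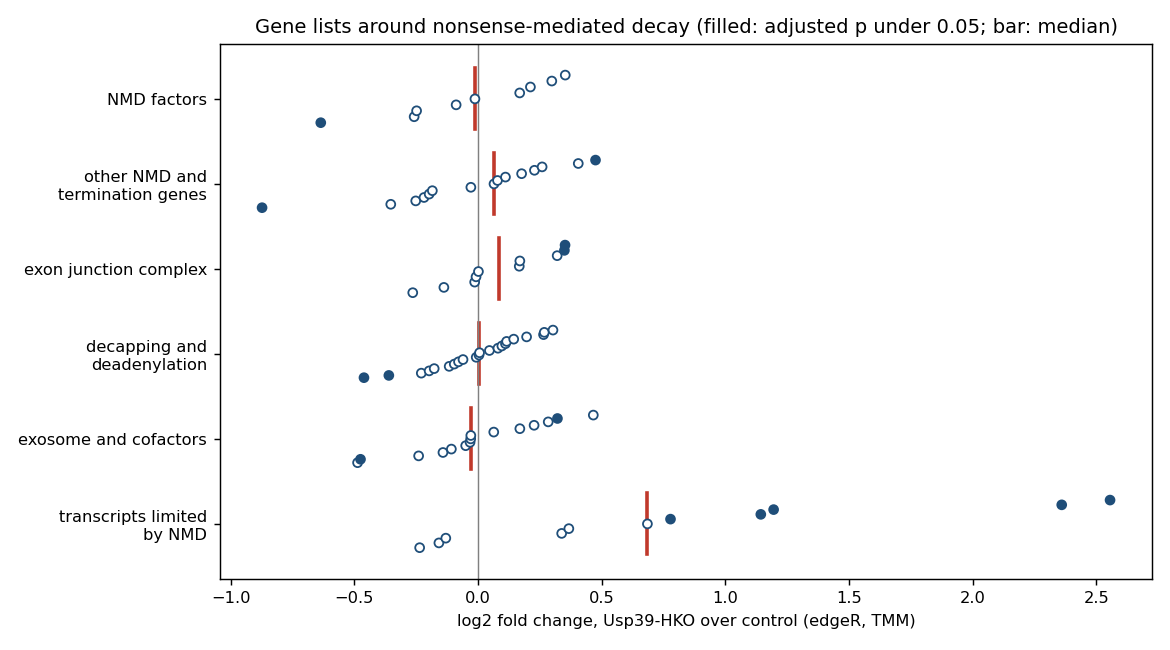
Log2 fold change (Usp39-HKO over control, edgeR with TMM factors, n = 4 each) of the genes of 6 lists around NMD; each point is 1 gene, filled points passed an adjusted p under 0.05, and the red bar is the median of the list. The medians lie between -0.03 and 0.08 for the first 5 lists and at 0.69 for the transcripts limited by NMD.

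In bulk liver, fewer cells of a type and less RNA per cell cannot be told apart. Markers of other cells moved with genotype: 7 of 8 stellate and fibroblast markers rose (summed level 75.7 to 86.9 FPKM in control, 120 to 268 FPKM in Usp39-HKO livers), as did 7 of 8 macrophage markers (342 to 460 against 621 to 968 FPKM), 5 of 6 tested cholangiocyte markers (27.01 to 29.6 against 65.2 to 290 FPKM) and 7 of 7 tested markers of cycling cells (3.70 to 8.43 against 19.1 to 38.0 FPKM). The erythroid marker Epb42 had at most 3 counts in any mouse. Of the erythroid markers 4 of 4 tested fell, as did 2 of 8 endothelial and 2 of 8 hepatocyte markers, and 0 tested lymphocyte or neutrophil markers were called. Their part in the NMD factor levels was not tested. In control mouse 4, pancreatic acinar markers summed to 642 FPKM, against 2.92 to 4.97 FPKM in the other 7 mice. Without that mouse Upf3b was at -0.67 (edgeR, Benjamini-Hochberg adjusted p = 0.024), and it was again the 1 factor called.

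Outside the lists, the 5 tested genes whose pattern over the 8 mice was most like that of Upf3b were Alg9, Zfp109, Cped1, Zfp946 and Daam1. Their log2 TMM-scaled CPM, centred on each gene's mean, differed from that of Upf3b by a root mean square of 0.108 to 0.120 over the 8 mice. Their log2 fold changes lay between -0.67 (Cped1) and -0.50 (Daam1 and Zfp109). Hsf1, a heat shock transcription factor gene in which the study followed a transcript with a premature termination codon, was at 2.21 ± 0.246 FPKM in control and 2.78 ± 0.203 FPKM in Usp39-HKO livers as a whole gene. Its groups did not overlap in FPKM (exact permutation p = 0.029), and its log2 fold change of 0.09 ± 0.12 (SE) did not pass the test with TMM (edgeR, Benjamini-Hochberg adjusted p = 0.61), nor did the 0.33 found with library size alone (adjusted p = 0.070). By qPCR, the study reported lower Hsf1 mRNA and canonical isoform in Usp39-HKO livers, and more of the isoform with the premature codon. The counts here take all isoforms together and cannot separate them.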

How the data were processed

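Liver RNA of 8 mice was sequenced as paired reads. Per the labels and the study's methods, reads were trimmed with Trim Galore 0.6.1, aligned to mm10 with HISAT2 and assigned with featureCounts. The deposited table gives counts per gene and FPKM, which the authors computed from these counts, gene length and library total (rebuilt here within 0.1% for 100% of values). It also holds the authors' own DESeq2 comparison (mean level, fold change, its error and p-values), which was not used. Of 55699 entries, 314 repeated an identifier with equal values and were dropped. Genes with FPKM of at least 0.5 in at least 4 mice were tested with edgeR 4.0.16 (quasi-likelihood, TMM, R 4.3.3) and Benjamini-Hochberg adjustment over all 14340. The SE is the log2 fold change divided by the square root of F. Levels and ratios were compared by two-sided exact permutation tests over 70 assignments. Alternatives used DESeq2 1.42.0, limma 3.58.1 on log2(FPKM + 1) or log2(FPKM + 0.1), other factors and filters, and leaving out each mouse. The within-mouse ratios, the pairs of factors and the comparisons by annotated transcript class were not in the written plan of tests. The leave-one-out ratios and the coding transcript length for the Upf3a to Upf3b ratio were added after seeing the data. The fits were tested on simulated data. The named genes were all 9 factors, Usp39, Hsf1, every called gene of a list with up to 4 calls or otherwise the 2 largest rises and falls (Snhg1, Ddit3 and Upp1 were added after their values were seen), and the 5 genes most like the factor with the largest change; 1 further gene is not reported here. The factors, lists and tests were chosen with earlier results of these data known. The table has 1 library per mouse. Of the identifiers 99.6% are in GENCODE vM21.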

Additional observations from a re-analysis of the deposited data

How the results depend on the processing

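With 4 mice a group, the exact permutation test cannot give less than 0.029. Upf3b passed in 12 of 15 alternatives and was lower in all 15. It missed the threshold with library size alone and with limma, at -0.33 (adjusted p = 0.098) with a pseudocount of 1 and -0.39 (adjusted p = 0.097) with 0.1. It has no value, like Upf3a and Smg9, under a filter of mean FPKM of at least 5. Under that filter Smg5 was the 1 factor called, as higher, at 0.38 (edgeR with TMM, Benjamini-Hochberg adjusted p = 0.036). No paired analysis was possible because the labels do not say which of the mice shared a litter.

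With library size alone and with both limma fits, 3 NMD factors, 4 exon junction complex genes, 4 exosome genes and 8 NMD-limited genes were called, all higher. Of all genes, 24.6% were called higher with library size alone and 21.1% with limma on log2(FPKM + 1). With upper-quartile factors 2 NMD factors were called, 1 in each direction. Without a filter 0 exon junction complex genes were called. The decapping count was 5 with library size alone and 1 with median-ratio factors or with mean FPKM of at least 5. The study's cutoff was met by 2 factors, Smg9 and Smg5, with library size alone and with limma on log2(FPKM + 0.1). Each was higher in Usp39-HKO livers, and Upf3b did not meet the cutoff there. The share of all genes past the cutoff was not worked out for these settings. With limma on log2(FPKM + 1) or mean FPKM of at least 5, 0 factors met it. For the levels, TMM-scaled CPM in place of FPKM gave log2 differences of -0.26 for Upf1, -0.64 for Upf3b, 0.17 for Smg1, 0.35 for Smg9, 0.30 for Smg5 and -0.25 for Smg6, and turned the direction for Upf2 (-0.014) and Smg8 (-0.088). That shift comes from the scaling, since length cancels within a gene. The cause of the others was not tested.

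The log2 fold change turned positive for Upf2 with limma (0.18 and 0.20), mean FPKM of at least 5 (0.069), library size alone (0.24), upper-quartile factors (0.055) and in 3 fits without 1 mouse (0.02, 0.04 and 0.14). It did so for Smg8 with limma (0.13 and 0.15), library size alone (0.15) and once without 1 mouse (0.0019).

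Leaving out 1 mouse at a time gave 1 to 2 NMD factors called and 1 past the study's cutoff, 2 to 3 further NMD genes, 0 to 2 exon junction complex genes, 0 to 3 decapping genes, 1 to 3 exosome genes and 4 to 7 NMD-limited genes. The log2 fold change then ranged from -0.096 to 0.14 for Upf2 and from -0.15 to 0.0019 for Smg8. The log2 difference in FPKM level ranged from -0.069 to 0.035 for Upf1, from 0.13 to 0.39 for Upf2, from -0.50 to -0.28 for Upf3b, from 0.33 to 0.47 for Smg1, from 0.50 to 0.68 for Smg9, from 0.45 to 0.62 for Smg5 and from -0.064 to 0.058 for Smg6.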
